A study of Mus musculus with 7 samples.

Results

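The genes described here mark adipocytes, the fat-storing cells of adipose tissue, and their transcripts were counted in mouse tumours grown from B16F10, a melanoma cell line that makes pigment. The members are the 10 rows of the gene count table named Adipoq, Lep, Retn, Cfd, Plin1, Plin4, Cidec, Lipe, Fabp4 and Pparg, out of 21878 genes in all. They were chosen by symbol, with earlier results of these data known. RNA was sequenced from 7 such tumours, carried by female C57BL/6J mice whose groups were drawn at random when tumours could be felt. The control group (NC) had 3 libraries, with no drug or vehicle named. The Zelnorm group had 4, from mice dosed orally with 1.25 mg/kg of Zelnorm (tegaserod, a drug acting on gut serotonin receptors) every 2 days, and its columns carry the letters MBZ, which the labels do not spell out. The libraries are named by their columns: NC_5, NC_6 and NC_10, and MBZ_9, MBZ_11, MBZ_13 and MBZ_15. B16F10 is 1 cell line, so all the grafts share its tumour cells, and every other cell in a piece comes from the host. The sources used here do not give the age of the mice, the site of the graft or the way a piece was cut. Whether every library is a separate mouse is not stated either, so p-values measure the spread between these samples, which may be technical.

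Adipocytes store fatty acids as triglyceride in 1 large lipid droplet. Perilipins coat the droplet and hold back the lipases that release the fat, and CIDE proteins make small droplets fuse into large ones. The nuclear receptor PPAR gamma, together with C/EBP transcription factors, turns on most of these genes as fat cells mature. Adipocytes also secrete hormones and other proteins into the blood, among them adiponectin, leptin, resistin (in mice) and the complement protease adipsin. White fat underlies the skin of the mouse and surrounds the mammary ducts of females. Several of these transcripts together serve here as a sign of host fat in the piece, although single ones, such as leptin, can also be made by other cells, tumour cells included. In such bulk samples, fewer fat cells and less RNA per fat cell cannot be told apart.

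Adipoq, Plin1 and Cfd moved together from library to library and Lep departed from them. Whether the DNA before their start sites had a part in this was not tested. The stretches just before those sites are shown for these 4 members. Each is the 250 bases before the start site in RefSeq's GRCm38.p6 table, 5′ to 3′ on the gene's strand, and capitals mark matches to the motifs searched. The positions are chr16:23146286-23146535 (plus strand) for Adipoq, chr7:79732777-79733026 (minus strand) for Plin1, chr10:79890603-79890852 (plus strand) for Cfd and chr6:29059971-29060220 (plus strand) for Lep.
Adipoq: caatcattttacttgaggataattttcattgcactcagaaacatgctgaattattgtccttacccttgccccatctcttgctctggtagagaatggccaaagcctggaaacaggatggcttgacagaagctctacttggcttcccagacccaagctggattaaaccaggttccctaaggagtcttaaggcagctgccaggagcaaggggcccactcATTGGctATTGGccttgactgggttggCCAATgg
Plin1: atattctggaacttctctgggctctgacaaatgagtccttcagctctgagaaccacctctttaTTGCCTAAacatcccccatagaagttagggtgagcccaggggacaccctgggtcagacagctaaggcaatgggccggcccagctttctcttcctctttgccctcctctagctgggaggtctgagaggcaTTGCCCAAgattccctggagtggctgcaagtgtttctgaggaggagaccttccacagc
Cfd: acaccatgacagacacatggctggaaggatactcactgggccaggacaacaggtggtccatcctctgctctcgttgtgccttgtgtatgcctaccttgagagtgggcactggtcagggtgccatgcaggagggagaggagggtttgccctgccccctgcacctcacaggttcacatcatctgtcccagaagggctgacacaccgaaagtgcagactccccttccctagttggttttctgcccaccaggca
Lep: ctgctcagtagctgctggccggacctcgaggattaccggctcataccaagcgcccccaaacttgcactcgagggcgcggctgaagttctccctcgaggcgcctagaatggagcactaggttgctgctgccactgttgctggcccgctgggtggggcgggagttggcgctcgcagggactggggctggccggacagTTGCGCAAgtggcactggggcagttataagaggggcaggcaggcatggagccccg

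Motifs were searched on both strands, and the table held 13 start sites for 9 of the 10 members. The C/EBP core TTGCNNAA was found upstream of Lep, at -55 to -48 from the start site, and at 2 places upstream of Plin1, at -187 to -180 and -58 to -51. It was also present at 1 start site each of Cidec and Pparg, so that 4 of the 13 windows held it, against 9.56% of all 32851 windows in the table. The CCAAT box occurred 3 times upstream of Adipoq and in 4 of 13 windows, against 33.8% of all. The nuclear receptor half-site AGGTCA was found only upstream of Pparg (2 of 13 windows, 14% of all). The direct repeat of that half-site with any 1 base between its copies, the form PPAR gamma binds with its partner RXR, was in 0 of 13 member windows and 0.0335% of all. The TATA box letters TATAAA were in 1 of 13, upstream of Pparg, and in 12.4% of all. A match describes letters only, and whether any match is a known site was not checked. The Cfd window held none of the motifs.

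All 10 genes were detected in all 7 libraries, with at least 8 counts each. Levels are given in CPM, counts per 1000000 of the TMM-scaled library, and they compare libraries for 1 gene, not genes with each other. The summed counts of the 10 genes were 1419 in NC_5, 2358 in NC_6 and 3512 in NC_10, and 1002 in MBZ_9, 3004 in MBZ_11, 7193 in MBZ_13 and 1287 in MBZ_15. These sums made up 7.58, 13.0 and 18.0 of every 100000 counts in the NC libraries, and 5.74, 17.8, 40.9 and 6.54 in the Zelnorm libraries. By this sum, the most and the least fat transcripts were both found in the Zelnorm group, with the controls in between. Cfd and Fabp4 made up most of each sum, with 3508 and 1377 counts in MBZ_13 and 220 and 388 in MBZ_9. All library totals lay between 16903598 and 19666598 counts, and 3 counts, taken as the floor of detection, came to between 0.153 and 0.177 CPM.

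Adipoq, at 23146536 to 23157968 on chromosome 16 (GRCm38, as for all positions here), encodes adiponectin, a hormone made by fat cells. Its level was 4.39, 7.52 and 12.5 CPM in NC_5, NC_6 and NC_10, and 3.91, 12.7, 28.1 and 3.05 CPM in MBZ_9, MBZ_11, MBZ_13 and MBZ_15. MBZ_13 was highest, MBZ_11 and NC_10 were nearly equal, and the lowest 2 libraries were both Zelnorm, so the groups overlapped. The means were 8.15 ± 4.11 CPM (SD, n = 3) and 11.9 ± 11.6 CPM (SD, n = 4). Zelnorm over NC, the log2 fold change came to 0.54 ± 0.66 (SE; 95% interval -0.92 to 2.01, edgeR adjusted p = 0.831).

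Cfd (chromosome 10, 79890853 to 79892655) encodes adipsin, or complement factor D, the protease that activates the alternative complement pathway. It stood at 26.5, 54.7 and 54.6 CPM in NC_5, NC_6 and NC_10, and at 12.7, 55.6, 197 and 14.2 CPM in MBZ_9, MBZ_11, MBZ_13 and MBZ_15. NC_6, NC_10 and MBZ_11 had overlapping counting intervals, MBZ_13 was above them, and MBZ_9 and MBZ_15 were below every control. The log2 fold change was 0.63 ± 0.79 (SE; edgeR adjusted p = 0.841). Retn (chromosome 8, 3655770 to 3659818) encodes resistin and spanned the widest range of the 10 genes, 27.8-fold, from 8 counts in MBZ_9 to 227 in MBZ_13. Its levels were 1.35, 2.23 and 2.22 CPM in NC_5, NC_6 and NC_10, and 0.460, 4.38, 12.8 and 1.42 CPM in MBZ_9, MBZ_11, MBZ_13 and MBZ_15. The 3 controls lay close together within the range of the 4 Zelnorm libraries. It also had the largest log2 fold change of the 10, 1.29 ± 0.82 (SE; 95% interval -0.53 to 3.12, edgeR adjusted p = 0.641).

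Lep (chromosome 6, 29060221 to 29073876) encodes leptin, the hormone that reports fat stores to the brain. It was the least counted of the 10, with 13, 16 and 44 counts in NC_5, NC_6 and NC_10, and 11, 54, 19 and 16 counts in MBZ_9, MBZ_11, MBZ_13 and MBZ_15. On the CPM scale this was 0.704, 0.891 and 2.22 in NC, and 0.633, 3.20, 1.07 and 0.812 in the Zelnorm libraries. Leptin was thus high in MBZ_11 and NC_10 and low elsewhere, MBZ_13 included, although MBZ_13 was the highest library for the other 3 secreted proteins. The exact Poisson 95% interval of the count in MBZ_13 ran from 11.4 to 29.7, and that in MBZ_11 from 40.6 to 70.5, so the 2 libraries differed by more than counting error. The group difference was 0.15 ± 0.60 on the log2 scale (SE; edgeR adjusted p = 0.956).

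**Figure D1:**
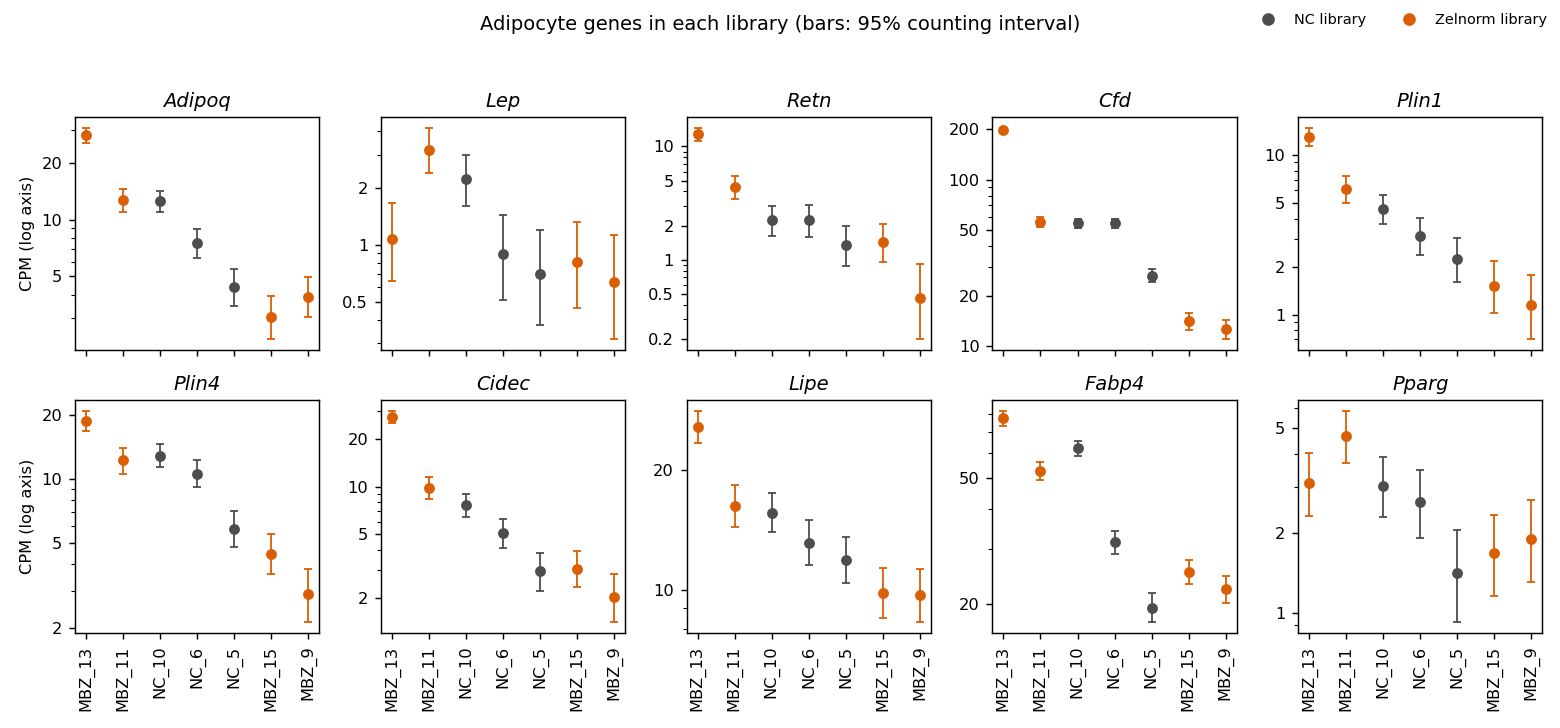
Level of the 10 adipocyte genes (CPM, log axis) in each library, ordered from left to right by the mean log2 CPM of the 6 adipocyte-restricted genes, with bars for the exact 95% counting interval. MBZ_13 was the highest library for 8 of the 10 genes (and for 1995 of all 12997 genes tested), and MBZ_11 for Lep and Pparg.

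The droplet genes ordered the libraries much as adiponectin did. Plin1 (chromosome 7, 79721164 to 79732904) encodes perilipin 1, the main coat protein of the fat cell's droplet, and had 2.22, 3.12 and 4.60 CPM in NC_5, NC_6 and NC_10, and 1.15, 6.10, 13.0 and 1.52 CPM in MBZ_9, MBZ_11, MBZ_13 and MBZ_15. Cidec (chromosome 6, 113424634 to 113435760) encodes the droplet fusion protein also called Fsp27, and had 2.92, 5.12 and 7.63 CPM in NC, and 2.01, 9.82, 27.5 and 3.05 CPM in the Zelnorm libraries in the same order. In both genes MBZ_13 and MBZ_11 were above, and MBZ_9 was below, every control. Their log2 fold changes were 0.71 ± 0.70 and 1.01 ± 0.75 (SE; edgeR adjusted p = 0.797 and 0.702).

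Plin4 (chromosome 17, 56100587 to 56109948), a perilipin of small droplets that muscle expresses as well, had 5.85, 10.6 and 12.8 CPM in NC_5, NC_6 and NC_10, and 2.88, 12.2, 18.7 and 4.47 CPM in MBZ_9, MBZ_11, MBZ_13 and MBZ_15. Here NC_10 and MBZ_11 were again alike, and the group means were 9.75 ± 3.57 (SD, n = 3) and 9.55 ± 7.32 CPM (SD, n = 4). It was the 1 member with a log2 fold change below 0, at -0.04 ± 0.53 (SE; edgeR adjusted p = 0.989). Lipe (chromosome 7, 25379527 to 25398486) encodes hormone-sensitive lipase, which splits stored fat when adrenaline signals. Its levels were 11.9, 13.1 and 15.6 CPM in NC, and 9.72, 16.2, 25.6 and 9.85 CPM in the Zelnorm libraries in that order, the narrowest range of the 10 genes at 2.63-fold. The libraries still fell in nearly the order of adiponectin, and the log2 fold change came to 0.18 ± 0.30 (SE; adjusted p = 0.890 by edgeR).

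Fabp4 (chromosome 3, 10204342 to 10208616) encodes the fatty acid carrier aP2, which capillary endothelium and macrophages make too. It had 19.5, 31.4 and 62.2 CPM in NC_5, NC_6 and NC_10, and 22.3, 52.9, 77.5 and 25.3 CPM in MBZ_9, MBZ_11, MBZ_13 and MBZ_15. In contrast to adiponectin, NC_10 exceeded MBZ_11, and NC_5 was the lowest library. NC_10 also had the highest level of the endothelial list (373 CPM summed over 10 genes, against 239 to 312 CPM in the other 6 libraries), and the part of endothelium in the Fabp4 level was not tested. Pparg (chromosome 6, 115360879 to 115490404) encodes PPAR gamma, which macrophages also express, and stood at 1.41, 2.62 and 3.03 CPM in NC, and 1.90, 4.68, 3.09 and 1.68 CPM in the Zelnorm libraries in that order. MBZ_11 was the highest library for Pparg as it was for Lep, and it had the highest summed level of the macrophage list as well (612 CPM over 10 genes, against 221 to 456 CPM elsewhere), whose part was not tested. The log2 fold changes of Fabp4 and Pparg were 0.23 ± 0.45 and 0.26 ± 0.39 (SE; edgeR adjusted p = 0.906 and 0.869).

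None of the 10 genes passed the test for a difference between Zelnorm and NC. At an adjusted p under 0.05, edgeR's quasi-likelihood test called 0 of the 10, where 0.0308% of all 12997 genes tested were called. At an unadjusted p under 0.05 it was also 0 of the 10, where 10.3% of all genes tested had such a p. DESeq2 and limma voom also called 0 of the 10, against 1.71% and 0.0231% of the genes to which they gave an adjusted p. In 0 of the 10 genes did the 2 groups of libraries fail to overlap, where the groups did not overlap for 9.61% of all genes tested (5.33% higher and 4.28% lower under Zelnorm). All 10 genes passed the filter on low counts. A log2 fold change above 0 was found in 9 of 10, with a median of 0.40 against 0.00 over all genes tested, but that direction rested on MBZ_13. Without MBZ_13 the median was -0.18 and 3 of 10 genes were above 0. It was 0.17 without NC_5, 0.81 without NC_10, 0.64 without MBZ_9 and 0.65 without MBZ_15, and limma voom, which compares means of log values, gave 0.07. With the muscle level of each library as a covariate the median was 1.03, and still 0 of the 10 genes passed (2 at an unadjusted p under 0.05, as 1229 of all 12997 genes had in that fit). The 95% intervals were wide, so an absence of difference was not shown: for Cidec, the interval ran from -0.64 to 2.67, and for Lipe, the narrowest, from -0.49 to 0.84.

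**Figure D2:**
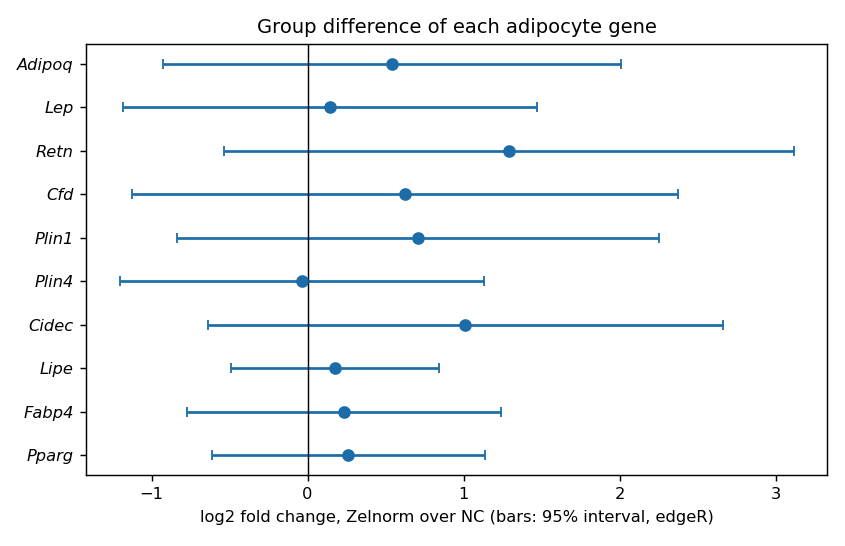
Log2 fold change of each adipocyte gene, Zelnorm over NC, with its 95% interval from edgeR (3 against 4 libraries). Every interval contains 0, and 9 of 10 estimates lie above it.

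These genes differed widely between libraries of the same group. Within the Zelnorm group, the highest library exceeded the lowest by 9.23-fold for Adipoq, 11.3-fold for Plin1, 13.7-fold for Cidec and 15.6-fold for Cfd, and within NC by 2.86, 2.07, 2.61 and 2.06-fold. The coefficient of variation that edgeR fitted within groups was between 0.273 (Lipe) and 0.702 (Retn) for the 10 genes, with a median of 0.547, against a median of 0.0916 over all genes tested. For Cfd, 0.323% of all genes tested had a coefficient as high or higher, and for Adipoq 0.677%. Lipe and Pparg were less extreme, at 10.1% and 4.35%.

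**Figure D3:**
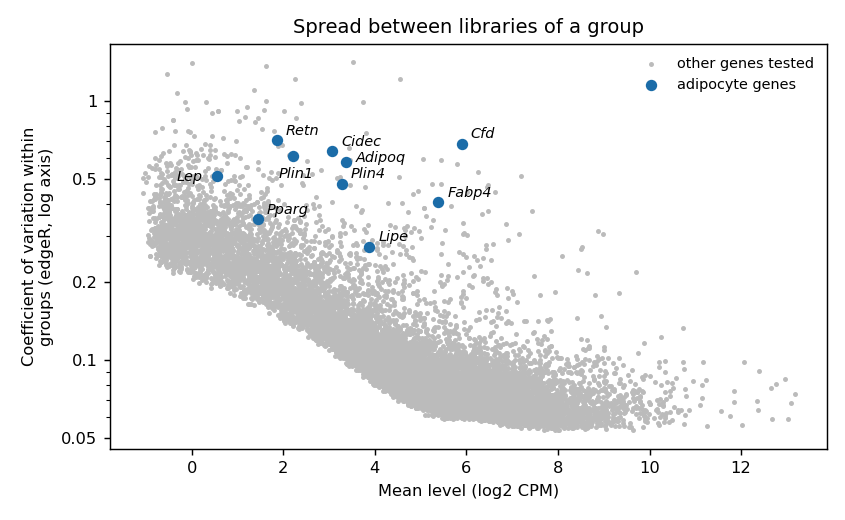
Coefficient of variation within groups fitted by edgeR (log axis) against mean level (log2 CPM) for the 12997 genes tested, with the 10 adipocyte genes in blue. The 10 genes lie between 0.273 and 0.702, above the median of 0.0916 over all genes tested.

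The libraries fell in much the same order for most of the 10 genes. The 6 members with the fewest other sources (Adipoq, Plin1, Cidec, Lep, Retn and Cfd) were averaged into an adipocyte level, their mean log2 CPM with a prior count of 2. It was highest in MBZ_13 (4.14), followed by MBZ_11 (3.22), NC_10 (2.84), NC_6 (2.33), NC_5 (1.66), MBZ_15 (1.39) and MBZ_9 (0.98), a span of 3.17 on the log2 scale. The group means were 2.28 ± 0.59 (SD, n = 3) in NC and 2.43 ± 1.5 (SD, n = 4) in Zelnorm. The order of the 7 libraries was the same with a prior count of 0.5 or 5, with all 10 genes, and with any 1 of the 6 left out. MBZ_11 and MBZ_13 were among the 3 highest libraries for all 10 genes, and NC_5, MBZ_9 and MBZ_15 were the 3 lowest for all 10. MBZ_9 was the very lowest for 7 genes, NC_5 for 2 and MBZ_15 for 1.

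As a description over the 7 libraries, each gene was set against the mean log2 CPM of the adipocyte-restricted genes other than itself. Pearson's r was highest for Plin1 (0.996, Spearman's rho 1) and lay between 0.930 (Fabp4) and 0.984 (Cidec) for 7 others, with rho from 0.857 to 1. It was 0.781 for Pparg (rho 0.821) and 0.533 for Lep (rho 0.857). Without the 2 libraries farthest from the median, MBZ_9 and MBZ_13, r was 0.880 for Lep and 0.956 for Pparg over 5 libraries, and between 0.841 (Cfd) and 0.990 (Plin1) for the rest. No p is given, because the genes were brought together as markers of 1 cell type and share each library's depth.

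Relative to Adipoq, Plin1 kept the steadiest proportion of the 9 other genes and Lep the least steady. For every 100 counts of Adipoq there were between 29.4 (MBZ_9) and 50.6 (NC_5) counts of Plin1, and the 95% counting intervals of all 7 libraries overlapped. Lep had 16.0, 11.9 and 17.7 counts per 100 of Adipoq in NC_5, NC_6 and NC_10, and 16.2, 25.2, 3.80 and 26.7 in MBZ_9, MBZ_11, MBZ_13 and MBZ_15. The value in MBZ_13 (interval 2.27 to 6.00) lay below the intervals of the other 6 libraries. Pparg was also low in that library, at 11.0 per 100 of Adipoq (8.17 to 14.6), against 24.2 to 55.0 in the others. Retn was higher in MBZ_13, at 45.4 per 100 (38.6 to 53.2), than in NC_10, at 17.7 (12.6 to 24.5), and lowest in MBZ_9 at 11.8. Cfd was at 702 and 727 per 100 of Adipoq in MBZ_13 and NC_6, and at 324 in MBZ_9 and 436 in NC_10. Fabp4 and Lipe, which other cells express too, had their highest proportion in MBZ_15 (832 and 323) and their lowest in MBZ_13 (275 and 91.0). These intervals cover counting error only.

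**Figure D4:**
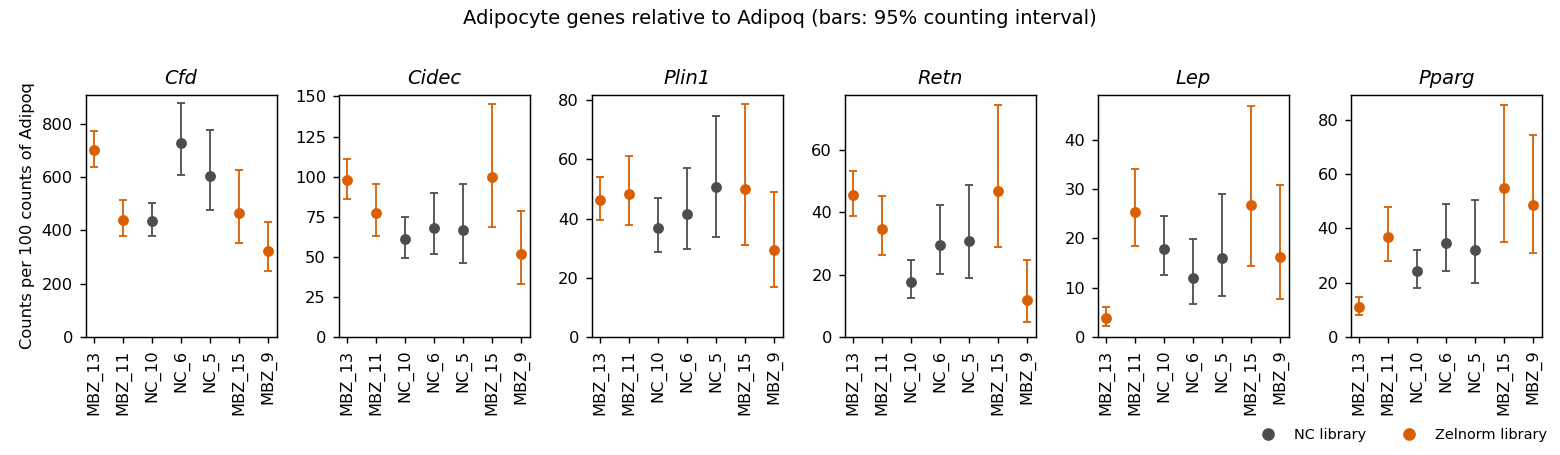
Counts of 6 adipocyte genes per 100 counts of Adipoq in each library, ordered by adipocyte level, with exact 95% counting intervals. Lep and Pparg are lowest in MBZ_13 (3.80 and 11.0), while the intervals of Plin1 overlap in all 7 libraries.

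The label of fat was next checked with other genes of adipocytes. Of a list of 20 further markers, all were in the table and 19 were tested. Of these 0 rose and 0 fell (edgeR adjusted p, 0 at an unadjusted p under 0.05), with a median log2 fold change of 0.30. MBZ_13 was the highest library for 11 of the 19, and for 1995 of all 12997 genes tested. Car3, a carbonic anhydrase abundant in fat and muscle, had 14.7, 21.5 and 30.8 CPM in NC_5, NC_6 and NC_10, and 7.88, 36.0, 105 and 15.5 CPM in MBZ_9, MBZ_11, MBZ_13 and MBZ_15. Pck1, the enzyme that makes glycerol backbones for triglyceride in fat, ran from 0.345 CPM in MBZ_9 to 16.2 CPM in MBZ_13. In both, MBZ_13 was highest and MBZ_9 lowest. They are named because they were among the genes most like the adipocyte level, so this order followed from that choice. Other tested markers of the list peaked elsewhere. Sncg and Nnat were highest in NC_10, Acvr1c and Mrap in NC_6, Apoc1 and Adcy4 in MBZ_11, and Aspa in MBZ_9. The 3 with the smallest p were Hcar1, the lactate receptor that restrains lipolysis (log2 fold change 0.53 ± 0.26), Pnpla3 (1.13 ± 0.59) and Cyp2e1 (1.80 ± 1.10), none past the threshold (edgeR adjusted p = 0.532, 0.550 and 0.625). Hcar1 did not follow the fat genes, as it was highest in MBZ_9 (10.8 CPM).

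Among 2485 tested genes other than the members that varied enough between libraries (an SD of log2 CPM of at least 0.3), the 10 most like the adipocyte level over the 7 libraries had Pearson's r between 0.955 and 0.977, given as a description. They were Car3, Mme, Aldh1a7, Pck1, Scd1, Drc1, Abcd2, Hp, Amy1 and Ghr. Of these Car3, Pck1 and Scd1 were on the lists used here. Hp encodes haptoglobin, a haemoglobin-binding protein made by liver and fat, and had 54.3, 56.3 and 135 CPM in NC_5, NC_6 and NC_10, and 32.8, 112, 187 and 46.2 CPM in MBZ_9, MBZ_11, MBZ_13 and MBZ_15. Scd1, the desaturase that makes oleate, was much less variable, from 270 CPM in MBZ_9 to 559 CPM in MBZ_13, and did not pass the test between groups (log2 fold change 0.07, edgeR adjusted p = 0.946). Few counts lie behind the likeness of Mme, Aldh1a7, Drc1, Abcd2 and Amy1, which were at 3.88 CPM or less in every library, and Amy1 fell to 0.0575 CPM in MBZ_9. All 10 were highest in MBZ_13, which followed largely from the choice, as that library had the highest adipocyte level.

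Genes of droplets and lipolysis other than the members were mixed in their spread between libraries. Of 13 such genes 10 were tested, 0 rose and 0 fell, and the median log2 fold change was 0.10. Plin2, the perilipin of most cell types, stood between 171 and 186 CPM in NC and between 187 and 217 CPM in Zelnorm libraries, without overlap but by a small amount (log2 fold change 0.18 ± 0.06, edgeR adjusted p = 0.362). Pnpla2, the lipase that takes the first fatty acid from a triglyceride, lay between 46.0 and 67.7 CPM (0.23 ± 0.12, adjusted p = 0.531 by edgeR), and Hilpda, which inhibits that lipase, between 42.4 and 57.6 CPM (-0.17 ± 0.09, edgeR adjusted p = 0.589). The coefficient of variation of this list had a median of 0.0990, but 2 genes that peaked in MBZ_13 varied more widely. Mgll, the lipase that splits monoglycerides, spanned 2.64-fold, from 222 to 588 CPM. Its coefficient of 0.272 was just below that of Lipe, the lowest member (0.273), and MBZ_9 was its second highest library at 477 CPM. G0s2, an inhibitor of the lipase Pnpla2, spanned 9.05-fold, from 0.460 to 4.16 CPM, with a coefficient within the range of the members (0.512).

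Fatty acid uptake and triglyceride synthesis gave 0 risen and 0 fallen of 14 tested genes, with a median of -0.02. Lpl, the lipase that frees fatty acids from blood lipoproteins, was lowest in NC_5 at 10.2 CPM and highest in MBZ_13 at 30.5 CPM. Cd36, a fatty acid receptor of fat cells, endothelium and macrophages, ranged from 13.5 CPM in NC_5 to 44.0 CPM in MBZ_13. Both overlapped between groups (edgeR adjusted p = 0.769 and 0.768). The smallest p values of this list belonged to Lpin1 (log2 fold change -0.25 ± 0.11), Acsl1 (0.24 ± 0.20) and Gpihbp1 (-0.16 ± 0.14). Fatty acid synthesis had 0 of 7 genes called and a median of -0.09, and 3 of the 7 were lower without overlap, where 4.28% of all genes were. The first of these was Scd2 (log2 fold change -0.27 ± 0.08, edgeR adjusted p = 0.295) and the others were Acly and Me1 (both -0.09 ± 0.05). Elovl6, with -0.22 ± 0.08, overlapped between groups.

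Of 12 regulators of fat cell formation, 3 were highest in MBZ_13, where 1995 of all 12997 genes tested were. Among these 12 transcription factors and cofactors 0 rose and 0 fell, and the median was 0.13. An unadjusted p under 0.05 was found for 4 (3 upward, 1 downward), where 10.3% of all genes had one. Cebpa, which acts with PPAR gamma in maturing fat cells and also in myeloid cells, had 7.85, 8.13 and 13.7 CPM in NC_5, NC_6 and NC_10, and 11.4, 19.7, 22.0 and 13.8 CPM in MBZ_9, MBZ_11, MBZ_13 and MBZ_15. It was highest in the 2 libraries with the highest adipocyte level, MBZ_13 and MBZ_11, and its log2 fold change was 0.75 ± 0.26 (SE; edgeR adjusted p = 0.348). Cebpd (0.77 ± 0.22) and Cebpb (0.56 ± 0.18), early factors of fat cell formation that inflammation also induces, were instead highest in MBZ_15, one of the libraries with least fat transcripts (10.5 and 27.7 CPM). Srebf1, the regulator of fatty acid synthesis, had a log2 fold change of -0.20 ± 0.06. Neither these nor Cebpa passed the threshold (edgeR adjusted p between 0.245 and 0.348).

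Receptors for the fat hormones overlapped between groups. Adipor1 and Adipor2, the adiponectin receptors, lay between 187 and 205 CPM and between 159 and 175 CPM, and Lepr, the leptin receptor, between 0.390 and 1.02 CPM. Of 11 further adipokines and receptors 9 were tested, 0 rose and 0 fell, and the median was 0.11. Rbp4, the retinol carrier secreted by liver and fat, was highest in MBZ_13 and MBZ_11 at 2.76 and 2.43 CPM and lowest in NC_5 at 0.325 CPM (log2 fold change 1.03 ± 0.62, edgeR adjusted p = 0.617). Nampt (0.11 ± 0.09) and Angptl4 (0.34 ± 0.34) had the next smallest p of that list.

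The defining gene of brown fat was not detected at this depth. Ucp1, the uncoupling protein of heat production, had 0 counts in all 7 libraries, which allows up to 0.177 CPM in the shallowest of them. Of 10 brown fat genes 6 were tested, 0 rose and 0 fell, with a median of 0.29. Dio2, the enzyme that activates thyroid hormone, was between 0.278 and 0.433 CPM in NC and between 0.460 and 1.74 CPM in Zelnorm libraries (log2 fold change 1.80 ± 0.50, edgeR adjusted p = 0.229), followed by Cox7a1 (-0.27 ± 0.24) and Cox8b (0.55 ± 0.57). Progenitors of fat cells were covered by 9 genes, of which 1 rose and 0 fell, with a median of 0.22, where 0.0308% of all genes tested rose. The 1 that rose was Ly6a (Sca-1), a surface antigen of such progenitors and of many other cells, with 18.5 to 23.2 CPM in NC and 37.5 to 45.4 CPM in Zelnorm libraries (1.01 ± 0.10, edgeR adjusted p = 0.00533). Pi16 (1.39 ± 0.39, edgeR adjusted p = 0.243) and Dpp4 (0.87 ± 0.29, edgeR adjusted p = 0.338), which mark progenitors in the connective tissue around fat, were next, and neither passed. The sums of the leukocyte and fibroblast lists overlapped between groups. Leukocyte genes summed to 150 to 226 CPM in NC and 199 to 331 CPM in Zelnorm libraries. By the mean log2 level of the list, however, the groups did not overlap for leukocytes. That level was 3.42 to 3.97 in NC and 4.02 to 4.73 in Zelnorm libraries, while the level of the fibroblast list overlapped. Fibroblast genes, of which Pdgfra and Fap are also on the progenitor list, summed to 684 to 1779 and 1219 to 2431 CPM. The part of these cells in the result was not tested.

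Other host tissues were measured beside the fat genes by lists of their markers. Simple epithelium such as mammary ducts was covered by Krt8, Krt18, Krt19, Epcam, Cdh1 and the milk protein genes Csn2 and Wap, of which the last 2 were at 0 counts in all libraries. The summed level of this list was 4.22, 12.2 and 15.8 CPM in NC_5, NC_6 and NC_10, and 1.38, 13.5, 25.1 and 5.48 CPM in MBZ_9, MBZ_11, MBZ_13 and MBZ_15. It moved with the fat genes, being highest in MBZ_13 and lowest in MBZ_9 (mean log2 level against the adipocyte level, r = 0.895 and rho = 0.929 over 7 libraries). Krt8, a keratin of such epithelium, had 113 counts in MBZ_13 and 0 in MBZ_9. The part of these cells in the fat gene levels was not tested.

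The epidermal list stood apart in MBZ_11. The 14 genes of epidermis and hair follicle summed to 22.0 CPM in MBZ_11 and to between 1.09 and 3.71 CPM in the other 6 libraries, and Krt14 had 95 counts in MBZ_11 and at most 13 elsewhere. By this sum the other 6 libraries fell in the order of the adipocyte level, while by the mean log2 level of the list NC_5 lay above NC_6 (r = 0.586 and rho = 0.929 with the adipocyte level over all 7). In addition, 5 of its genes had under 3 counts in every library, Ivl and Krt25 were at 0 everywhere, and its part in the fat gene levels was not tested. The mean log2 levels of the sebaceous gland list (r = 0.788, rho = 0.786) and the Schwann cell list (r = 0.708, rho = 0.821) also moved with the adipocyte level, over spans of 0.54 and 0.55 on the log2 scale. The sebaceous list, with Dgat2l6 and Mc5r at 0 everywhere, summed to 17.2 to 19.3 CPM in NC and 20.9 to 30.4 CPM in Zelnorm libraries. Most of that sum was Mgst1, at 15.5 to 17.9 CPM in NC and 19.5 to 27.7 CPM in Zelnorm libraries. The Schwann cell list summed to 298 to 327 and 282 to 334 CPM, mostly from Mbp and S100b. By this sum it did not follow the adipocyte level, as MBZ_13 was lowest (282 CPM) and MBZ_15 was at 330 CPM. The part of both lists in the result was not tested. Skeletal muscle did not follow the fat genes. The 14 muscle genes summed to 399 CPM in MBZ_15, 151 CPM in MBZ_11 and 48.6 CPM in NC_5, and to between 10.7 and 24.4 CPM in the other 4. MBZ_15 therefore had the most muscle transcripts and the second lowest adipocyte level, MBZ_13 had the highest adipocyte level and 11.1 CPM of muscle genes, and MBZ_11 ranked second for both. Leaving out MBZ_15, MBZ_11 and NC_5, 0 of the 10 fat genes passed and their median log2 fold change was 0.48 (2 libraries against 2). Genes of the melanocyte lineage, which mark the tumour cells, summed to between 25962 and 30338 CPM.

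**Figure D5:**
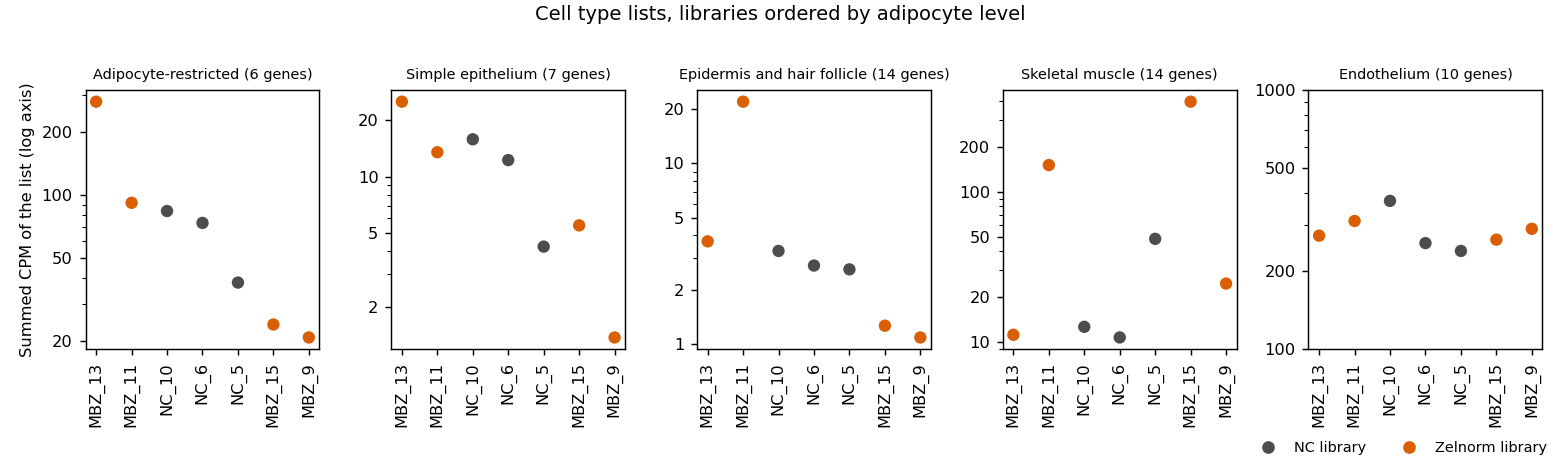
Summed CPM (log axis) of 5 cell type lists in each library, ordered by adipocyte level. The epithelial list falls in nearly the same order as the adipocyte genes, from 25.1 CPM in MBZ_13 to 1.38 CPM in MBZ_9, while muscle peaks in MBZ_15 (399 CPM) and epidermis in MBZ_11 (22.0 CPM).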

How the data were processed

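The values used are the raw read counts deposited by the authors, 1 row for each of 21878 genes and 1 column for each of 7 libraries; 27 symbols that had turned into dates were restored. Per the submitters' processing notes, Trimmomatic, HISAT2, Cufflinks, HTSeq and DESeq were used, and the builds named are GRCh38 and GRCm38; the sources used here do not give versions, the strand setting of the counting or the annotation. Per the labels' protocols, libraries were made with a stranded mRNA kit. Columns were assigned to groups by their names. Pairs of libraries differed by a chi-square of at least 6.54 per degree of freedom, so none was a copy.

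Genes passing filterByExpr (12997) were scaled by TMM (factors 0.986 to 1.01) and compared with edgeR 4.0.16 in R 4.3.3 (quasi-likelihood test, Benjamini-Hochberg over all genes tested, threshold 0.05), which was tested on simulated data. The simulation gave every gene a coefficient of variation of 0.111, below the 0.273 to 0.702 fitted for the members. It therefore does not show how well the test finds differences in them. The SE was derived from the F statistic. Alternatives used DESeq2 1.42.0, limma 3.58.1, other scalings and filters, a muscle covariate and fewer libraries. Counting intervals are exact, at 95%. Named were all members, the 3 genes of each other list with the smallest p, a few defining genes (Ucp1, Cebpa, Lpl, Cd36, Plin2, Pnpla2) and the 10 genes, members left out, most like the adipocyte level (SD of log2 CPM of at least 0.3, no gene models). Me1, Mgll, G0s2, Adipor1, Adipor2, Lepr and the markers of other tissues fall outside this rule and were named after their values were seen. Members and lists were chosen with earlier results of these data known. IDs of 21727 genes were found in the RefSeq table. Coordinates and upstream sequences are from RefSeq, GRCm38.p6.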

Additional observations from a re-analysis of the deposited data

Results flagged for a closer look

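Leptin in MBZ_11 stood apart from the other 3 Zelnorm libraries. Lep was at 3.20 CPM there, against 0.633, 1.07 and 0.812 CPM in MBZ_9, MBZ_13 and MBZ_15. On the CPM scale, the gap was 0.830 of the group's whole range, where 0.829 is the critical value for 4 samples. The log2 scale was not examined for single genes. Chance alone sets apart about 1 in 20 such groups if their values are normally distributed, and 11 were examined (the 10 genes and the adipocyte level).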

How the results depend on the processing

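Under all alternatives tried on them, 0 of the 10 adipocyte genes passed the threshold. These were RLE and upper quartile scaling, no filter, DESeq2, limma voom, a robust edgeR fit, the muscle covariate, an adjusted p under 0.10, each library left out, and the removal of the 3 libraries with the most muscle transcripts, which was chosen after seeing the data. The lowest adjusted p of any of these genes was 0.453 (Retn without MBZ_9). Signs of single genes were not stable. Cfd was at -0.22 in limma voom, Plin4 at 0.49 with the muscle covariate, and Lep at -0.88 and Pparg at -0.18 without the 3 muscle-rich libraries; the cause was not tested. With each library left out in turn, the log2 fold change ran from -0.33 to 1.0 for Adipoq, -0.18 to 0.80 for Fabp4, -0.19 to 1.04 for Plin1, -0.59 to 0.26 for Plin4, -0.61 to 0.82 for Lep, -0.73 to 0.97 for Cfd, -0.084 to 1.39 for Cidec, 0.10 to 1.66 for Retn, -0.19 to 0.34 for Lipe and -0.090 to 0.49 for Pparg, and the median of the 10 from -0.18 to 0.81. Over all genes, edgeR called 4, and 34 with no filter, 206 with DESeq2, 21 with the robust fit, 32 at an adjusted p under 0.10, 0 without the 3 muscle-rich libraries (547 at an unadjusted p under 0.05), between 0 (NC_5, 977 at an unadjusted p under 0.05) and 161 (NC_10) with 1 library left out (21 without MBZ_15), and 5 with the adipocyte level as a covariate, also chosen after seeing the data. No paired analysis was possible because the numbers in the column names are not those in the sample titles. Depth limited Retn, Lep, Plin1 and Pparg most, with as few as 8, 11, 20 and 26 counts in a library.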

Other observations

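Some genes ran opposite to the fat genes from library to library; they were picked after their values were seen. Apln, a peptide hormone of vessels and fat that low oxygen induces, had 30.9, 20.5 and 31.9 CPM in NC_5, NC_6 and NC_10, and 41.2, 23.6, 16.6 and 33.2 CPM in MBZ_9, MBZ_11, MBZ_13 and MBZ_15. The library with the most fat transcripts was thus the lowest for Apln, and the one with the least was the highest. Hilpda, another gene that low oxygen induces, was also lowest in MBZ_13 (42.4 CPM) and MBZ_11 (49.3 CPM), against 55.4 to 57.6 CPM in the other 5 libraries. Prdm16, a regulator known from brown fat, was at 161 CPM in MBZ_13 and 173 CPM in MBZ_11, against 177 to 198 CPM elsewhere. Ucp1 was not detected in any library, and which cells made the Prdm16 transcripts was not tested.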
